A study of Homo sapiens with 12 samples.

Results

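A CDK4/6 inhibitor and an oestrogen receptor degrader were compared head to head in CAMA-1 cells, an ER-positive (oestrogen receptor-expressing) luminal breast cancer line of human origin. The comparison took 6 of the 12 RNA sequencing libraries of the series, chosen by their treatment label: 3 of cells given abemaciclib at 100 nM and 3 of cells given fulvestrant at 5 nM. The other 6 libraries were 3 of vehicle (DMSO) and 3 of a combination of both drugs, whose doses the labels do not restate. All 4 groups were wild-type CAMA-1 cells grown in RPMI-1640 with 10% fetal bovine serum, and each library came from its own culture in a single experiment on a single cell line. The question was which transcripts set the drugs apart through ER, the target of one of them, and which belonged to the cell-cycle arrest that both bring about.

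Abemaciclib blocks the kinases CDK4 and CDK6, so that the retinoblastoma protein (Rb) stays unphosphorylated and E2F transcription factors stay repressed. Fulvestrant binds ER and leads to its degradation, which removes the drive of oestrogen on its target genes, cyclin D1 among them, and so also lowers CDK4/6 activity. Luminal breast cancer cells stop cycling under either drug, whereas abemaciclib does not act on ER directly.

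The table held 3299119 to 5164667 counts per library. Transcripts of the mitochondrial genome took 17.4% to 18.6% of counts under abemaciclib and 17.2% to 20.6% under fulvestrant, against 12.0% to 12.5% in DMSO. All 10 luminal markers examined were expressed, whereas of 15 markers of basal, stromal and immune cells only COL1A1 and COL3A1 passed the filter on low counts and the 15 together made 20.01 to 36.6 CPM, a count scaled to the size of its library. The third fulvestrant library stood apart from the other 2, with correlations across genes of 0.978 to replicate 1 and 0.970 to replicate 2, against at least 0.981 in the pairs of the same group that did not include it, and the head-to-head counts are therefore also given without it.

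Of 11803 genes tested, 3417 (29.0% of all genes) differed between abemaciclib and fulvestrant at an adjusted p below 0.05 (edgeR quasi-likelihood test, Benjamini-Hochberg). More of them were higher under abemaciclib, 1831 genes or 15.5% of those tested, than under fulvestrant, 1586 genes or 13.4%. The imbalance grew with the size of the difference. Among the 826 genes that differed at least 2-fold, 558 (67.6%) were higher under abemaciclib, and among the 65 that differed at least 8-fold, 59 (90.8%) were. Without fulvestrant replicate 3 the counts were 1804 and 1549, and 2840 of the 3417 genes were called again. For 40.2% of all genes the 3 libraries of each drug did not overlap. In bulk RNA, fewer cells of a type and less RNA per cell cannot be told apart, which applies to each difference below.

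Placing each of the differing genes by its change from DMSO under either drug divided them into classes. Both drugs were set against the same 3 DMSO libraries, so the 2 sets of changes are given side by side and were not correlated. Against DMSO, abemaciclib raised 20.5% and lowered 20.7% of genes, and fulvestrant raised 25.3% and lowered 25.7%. The drugs moved 132 genes in opposite directions: 89 (0.754% of genes) rose under abemaciclib and fell under fulvestrant, and 43 did the reverse. The count of 132 was 85 when DMSO replicate 2 was left out. A further 575 genes (4.87%) fell under both drugs but lay lower under fulvestrant, and 432 rose under both and lay higher under fulvestrant. The mirror classes were smaller, with 64 genes lowered further by abemaciclib and 97 raised further by it. In the remaining classes only 1 drug crossed the threshold against DMSO (fulvestrant raised 672 and lowered 610 genes alone, abemaciclib raised 318 and lowered 215) or neither did (302 genes).

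**Figure D1:**
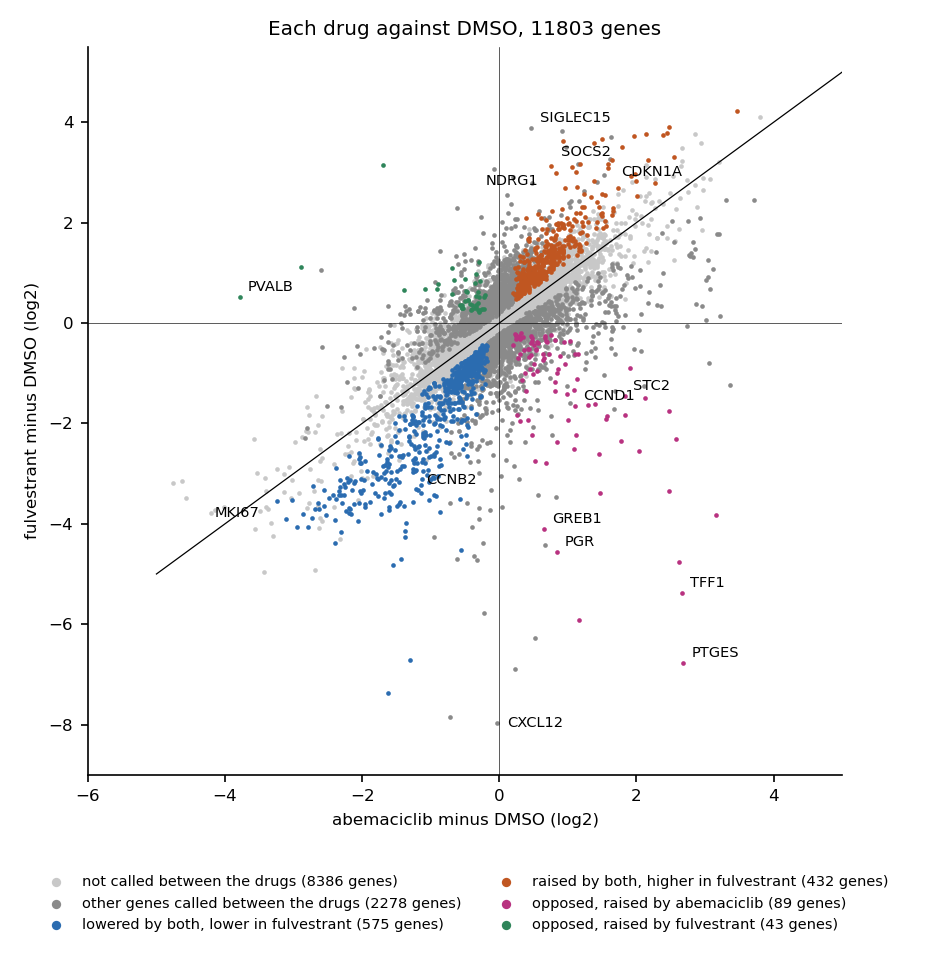
Change from DMSO under abemaciclib (horizontal, log2) and under fulvestrant (vertical, log2) for 11803 genes, each point being 1 gene coloured by its class. Points on the diagonal changed equally; the 89 genes raised by abemaciclib and lowered by fulvestrant lie at the lower right, where TFF1 and PTGES are found, and the 575 genes lowered by both and lower under fulvestrant lie below the diagonal at the lower left.

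Oestrogen-induced genes were among those that separated the drugs most widely. A list of 40 genes known to be induced by oestrogen in breast cancer cells was chosen with earlier results of these data known. Its counts are therefore descriptive. Of the 36 that passed the filter, 31 (86.1%) were higher under abemaciclib and 0 under fulvestrant, beside 15.5% and 13.4% of all genes. The median log2 difference of the list was 1.51 (median over all genes, -0.01). The list contained 15 of the 89 genes raised by abemaciclib and lowered by fulvestrant, a class that held 0.754% of all genes. Its median change from DMSO was 0.57 under abemaciclib and -1.10 under fulvestrant, on the log2 scale.

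Among secreted products, TFF1, a trefoil peptide of mucosal repair (chromosome 21, 42362282-42366535, GRCh38), is a classical readout of ER. Its level was 367, 383 and 395 CPM under abemaciclib and 1.73, 1.97 and 0.684 CPM under fulvestrant, with 57.2 to 62.3 CPM in DMSO. All abemaciclib libraries therefore lay above DMSO and all fulvestrant libraries below it, and the log2 difference between the drugs was 8.04 ± 0.16 (SE, n = 3 and 3; adjusted p = 4.85e-24). TFF3, its paralog, read 30.0, 35.5 and 39.9 CPM under abemaciclib against 1.73, 1.97 and 1.82 CPM (log2 difference 4.23 ± 0.25). STC2, a secreted glycoprotein hormone, read 439, 369 and 347 CPM against 42.3, 38.4 and 37.1 CPM (log2 difference 3.29 ± 0.12), with DMSO between the drugs at 91.4 to 118 CPM. The chemokine gene CXCL12 showed another pattern: it stayed near its DMSO level under abemaciclib, with 6.06 to 7.60 CPM, and had no count in any fulvestrant library, a difference of at least 9.03-fold.

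Prostaglandin and nuclear receptor genes followed. PTGES, the terminal synthase of prostaglandin E2 (chromosome 9, 129738349-129753042), read 77.4, 84.1 and 75.3 CPM under abemaciclib against 0.247, 0 and 0 CPM under fulvestrant. Because no fulvestrant library exceeded 3 counts, the difference is a lower bound, at least 104-fold. PTGER3, a receptor for prostaglandin E2, was also among the 15 largest differences, at 13.2, 20.5 and 17.4 CPM against 1.48, 2.54 and 0.684 CPM.

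PGR, the progesterone receptor gene (chromosome 11, 101029624-101129813), held 23.8, 24.1 and 29.8 CPM under abemaciclib and 0.988, 0.564 and 0.228 CPM under fulvestrant (log2 difference 5.40 ± 0.33, adjusted p = 9.41e-13). GREB1, an ER cofactor (chromosome 2, 11482888-11642788), held 122, 130 and 129 CPM against 4.45, 3.95 and 5.47 CPM (log2 difference 4.76 ± 0.14). For both genes the DMSO libraries fell between the drugs, at 13.4 to 15.4 CPM for PGR and 77.5 to 86.1 CPM for GREB1.

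CCND1 encodes cyclin D1, the activating partner of the kinases that abemaciclib inhibits (chromosome 11, 69641156-69654474). It read 1360, 1289 and 1332 CPM under abemaciclib and 195, 186 and 205 CPM under fulvestrant, with DMSO at 613 to 624 CPM. The groups were far apart relative to their spread, and the log2 difference was 2.76 ± 0.08 (adjusted p = 1.67e-20). MYC, which drives growth and cell-cycle entry, was lower under fulvestrant by the test, at 10.6, 5.64 and 4.33 CPM against 17.6, 21.0 and 20.7 CPM, but not higher than DMSO under abemaciclib (log2 change 0.12, adjusted p = 0.825). The MYC call (log2 difference 1.52 ± 0.44, adjusted p = 0.0249) did not survive leaving out abemaciclib replicate 2 or 3 or fulvestrant replicate 2 or 3, with adjusted p from 0.0638 to 0.0992.

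IGF1R, the receptor for insulin-like growth factor 1, read 10.4, 12.6 and 14.9 CPM under abemaciclib against 0.741, 3.10 and 0.456 CPM (log2 difference 3.20 ± 0.39). IGFBP4, which binds insulin-like growth factors, differed by 1.82 ± 0.09 on the log2 scale, and EGR3, an immediate early factor, by at least 7.47-fold. Patterns differed within the list. Some genes were raised by abemaciclib and lowered by fulvestrant, as TFF1, CCND1 and SIAH2 were, some were lowered by fulvestrant alone, as CXCL12 and IGFBP4 were, and ELOVL2 and OLFM1 fell under both drugs. ELOVL2, a fatty acid elongase, dropped from 138 to 146 CPM in DMSO to 94.4 to 97.1 CPM under abemaciclib and to 11.6 to 14.4 CPM under fulvestrant.

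The 5 tested members that did not differ between the drugs past the threshold were RARA, PKIB, BCL2, RET and HSPB8. RARA, the retinoic acid receptor alpha gene, was close to equal (log2 difference 0.07, 95% interval -0.29 to 0.42) and rose against DMSO under both drugs, and PKIB fell under both (log2 difference -0.11, -0.47 to 0.25). XBP1, which encodes a factor of the unfolded protein response, was higher under abemaciclib by only 0.63 ± 0.07 and its fulvestrant level of 719 to 808 CPM overlapped that of DMSO. CTSD, a lysosomal protease, rose under both drugs and was higher under abemaciclib (log2 difference 0.52 ± 0.09).

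**Figure D2:**
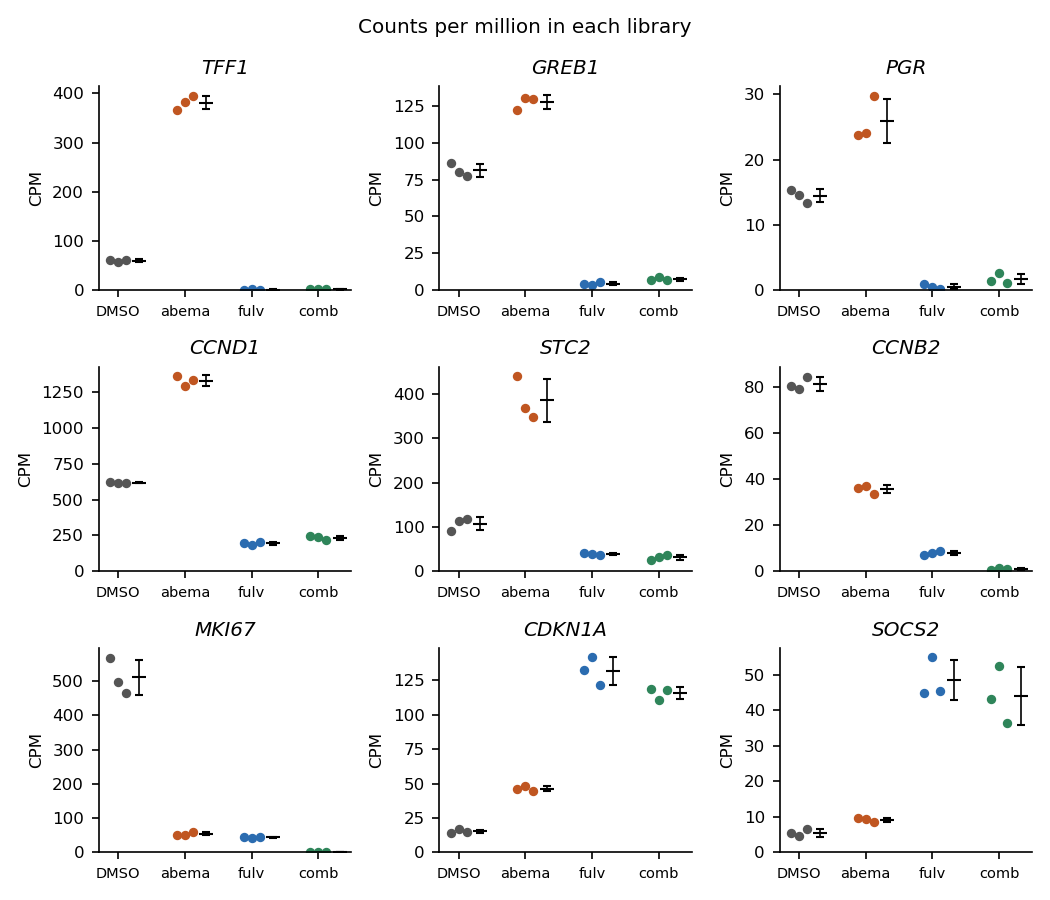
CPM of 9 genes in each of the 12 libraries (points), with the mean and SD of each group of 3 beside them (bar and whiskers); the vertical axes start at 0. TFF1, GREB1, PGR, CCND1 and STC2 lie above DMSO under abemaciclib and below it under fulvestrant, CCNB2 lies between DMSO and fulvestrant under abemaciclib, MKI67 is low under both, and CDKN1A and SOCS2 are higher under fulvestrant and the combination than in the other groups.

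The widest gaps were ranked over all genes, so TFF1, TFF3, GREB1 and other members of the list appear among them again. Because these genes were chosen by the gap, they give no separate support for it. The 15 largest differences in favour of abemaciclib, among genes with at least 10 CPM in the higher group and no overlap between libraries, were PTGES, TFF1, PGLYRP2, PGR, GREB1, TFF3, TIAM1, MUCL1, KRT81, LINC02747, MGP, PTGER3, KCNK5, MYEOV and STC2. Of these, MUCL1, a secreted mucin-like protein of breast epithelium, read 188, 194 and 210 CPM against 16.8, 13.3 and 16.4 CPM (log2 difference 3.66 ± 0.12). MGP, an inhibitor of calcification, read 150, 200 and 192 CPM against 18.0, 16.6 and 13.9 CPM (3.48 ± 0.12). TIAM1, an activator of the GTPase RAC1, was the only one of the 15 that was lowered by both drugs. It read 11.3 to 15.2 CPM under abemaciclib and 0.247 to 1.37 CPM under fulvestrant, from 18.4 to 21.4 CPM in DMSO. Its fall under abemaciclib only just passed the threshold (edgeR quasi-likelihood test, adjusted p = 0.0484). The remaining 14 rose under abemaciclib and fell under fulvestrant.

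Transcripts of ER itself and of its partners did not follow its targets. ESR1, which encodes ER, read 103, 98.9 and 106 CPM under abemaciclib and 90.4, 88.3 and 107 CPM under fulvestrant, with overlapping libraries and a log2 difference of 0.10 (95% interval -0.08 to 0.29, adjusted p = 0.436). Fulvestrant acts on ER protein, which was not measured here. Of 25 tested genes for ER, its pioneer factors and its coregulators, 12 (48%) were higher under fulvestrant, beside 13.4% of all genes. Another 2 (8%), GRHL2 and NRIP1, were higher under abemaciclib, beside 15.5%, and the median log2 difference of the list was -0.27. The call on NRIP1 was lost without abemaciclib replicate 3 (adjusted p = 0.0686) or fulvestrant replicate 3 (0.0512).

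GATA3, a luminal pioneer factor, fell under abemaciclib and rose under fulvestrant, at 2471 to 2678 CPM and 3265 to 4317 CPM around a DMSO range of 2818 to 3176 CPM (log2 difference -0.52 ± 0.09). FOXA1, also a pioneer factor, and the coregulator genes NCOA2 and NCOR1 were higher under fulvestrant, with log2 differences of -0.40, -0.50 and -0.48. KDM5A, a histone H3 lysine 4 demethylase, differed by -0.27 ± 0.09, and this call was lost in 3 of the 6 fits that left out 1 library of either drug (abemaciclib replicate 1 or 3, or fulvestrant replicate 3; adjusted p from 0.0722 to 0.108).

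Transcripts of cell-cycle genes shared the direction of their change under both drugs but not its depth. Each drug was given alone at 1 dose, and the effect of dose on depth was not tested. Of 77 tested genes for DNA replication and E2F targets, 76 fell under abemaciclib and 77 under fulvestrant. All 72 tested genes of mitosis fell under both. Of all genes, 20.7% fell under abemaciclib and 25.7% under fulvestrant. Between the drugs, 64 of the 72 mitotic genes (88.9%) were higher under abemaciclib and 0 under fulvestrant, beside 15.5% and 13.4% of all genes. The median log2 change of the mitotic genes from DMSO was -1.96 under abemaciclib and -3.26 under fulvestrant. Their median difference between the drugs was 1.23. For the replication genes the medians were -1.58 and -2.36, with 44 (57.1%) higher under abemaciclib, 4 (5.19%) higher under fulvestrant and a median difference of 0.72. The 2 lists supplied 108 of the 575 genes lowered by both and lower under fulvestrant (18.8%), beside 0.441% of the genes not called between the drugs. They supplied none of the 132 genes moved in opposite directions, and 16 of the 877 genes that fell alike.

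The mitotic genes with the widest gaps belong to late G2 and mitosis. CCNB2, a cyclin B gene (chromosome 15, 59105146-59125045), read 36.2, 37.1 and 33.6 CPM under abemaciclib and 7.17, 8.18 and 8.66 CPM under fulvestrant, from 78.9 to 84.3 CPM in DMSO (log2 difference 2.15 ± 0.15, adjusted p = 2.2e-11). CDC20, an activator of the anaphase-promoting complex, read 17.4, 20.5 and 21.7 CPM against 2.72, 5.36 and 5.93 CPM (2.08 ± 0.24). The phosphatase gene CDC25C and DEPDC1 differed by 2.16 ± 0.29 and 2.15 ± 0.30, and CCNB1, PLK1 and AURKA by 1.61 ± 0.15, 1.49 ± 0.16 and 1.44 ± 0.12. All abemaciclib libraries of these genes lay above all fulvestrant libraries.

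Other mitotic genes had narrower gaps between the drugs. MKI67, the proliferation marker, read 51.4, 51.4 and 59.6 CPM under abemaciclib and 44.5, 41.2 and 45.6 CPM under fulvestrant, from 466 to 569 CPM in DMSO. Its log2 difference was 0.30 ± 0.10 with an interval of 0.09 to 0.52, within 1.5-fold either way (adjusted p = 0.0286). The call on MKI67 was lost without abemaciclib replicate 3 (adjusted p = 0.153), fulvestrant replicate 1 (0.063) or fulvestrant replicate 2 (0.0882). CCNA2 (cyclin A2), AURKB and the lamin gene LMNB1 did not differ past the threshold, with log2 differences of 0.26 (interval -0.16 to 0.68), 0.10 (-0.36 to 0.55) and 0.13 (-0.12 to 0.38). FOXM1, a transcription factor of mitotic genes, lay close to the threshold at 0.54 ± 0.21 (adjusted p = 0.0489), and of the 6 fits that left out 1 library of either drug it passed only in that without fulvestrant replicate 2 (adjusted p from 0.0546 to 0.248 in the others).

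Within the replication list the spread was wider and crossed 0. E2F1, itself an E2F target, read 36.0, 32 and 38.2 CPM under abemaciclib and 13.3, 11.8 and 14.1 CPM under fulvestrant, from 89.9 to 98.4 CPM (log2 difference 1.42 ± 0.14). CDC6, CDT1 and ORC6, which act in origin licensing, were lower under fulvestrant, with log2 differences of 1.70 ± 0.21, 1.29 ± 0.18 and 2.49 ± 0.22. The helicase subunit genes MCM2 and MCM7 differed by 0.88 ± 0.19 and 0.86 ± 0.12, whereas MCM4 did not differ (0.01, interval -0.21 to 0.23). MYBL2, a partner of the complex that activates mitotic genes, differed by 1.82 ± 0.13, and the repair genes BRCA2 and BLM by 2.63 ± 0.25 and by at least 8.80-fold.

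PCNA, the sliding clamp of replicative polymerases, read 34.6, 41.3 and 45.5 CPM under abemaciclib and 40.8, 47.4 and 47.4 CPM under fulvestrant, from 185 to 241 CPM in DMSO. The libraries overlapped and the interval of the log2 difference, -0.42 to 0.08, lay within 1.5-fold. The nucleotide synthesis genes RRM2 and TK1 also missed the threshold, at 0.33 ± 0.14 (adjusted p = 0.0661) and 0.46 ± 0.20 (adjusted p = 0.0887), although their libraries did not overlap; TYMS passed at 1.16 ± 0.36 (adjusted p = 0.0323). TYMS was lost without abemaciclib replicate 2 or 3 or fulvestrant replicate 1, with adjusted p from 0.0688 to 0.091.

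A small set fell further under abemaciclib than under fulvestrant, 4 replication genes (5.19%) by the test, beside 13.4% of all genes. Of these, MSH6 and DUT are given here. The lowest log2 difference in the list, -1.58, belonged to a gene not reported here. In the list, 1 gene had at most 3 counts in every abemaciclib library. MSH6, a mismatch repair gene, read 95.2, 99.8 and 97.3 CPM under abemaciclib and 177, 162 and 183 CPM under fulvestrant, from 211 to 252 CPM (log2 difference -0.84 ± 0.09, adjusted p = 2.36e-08). DUT, the dUTPase gene, differed by -0.28 ± 0.08, within 1.5-fold, and CCNE2, a cyclin E gene, missed the threshold at -0.62 ± 0.24 (adjusted p = 0.0544). The call on DUT was lost without abemaciclib replicate 1 (0.0927) or fulvestrant replicate 1 (0.0563).

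**Figure D3:**
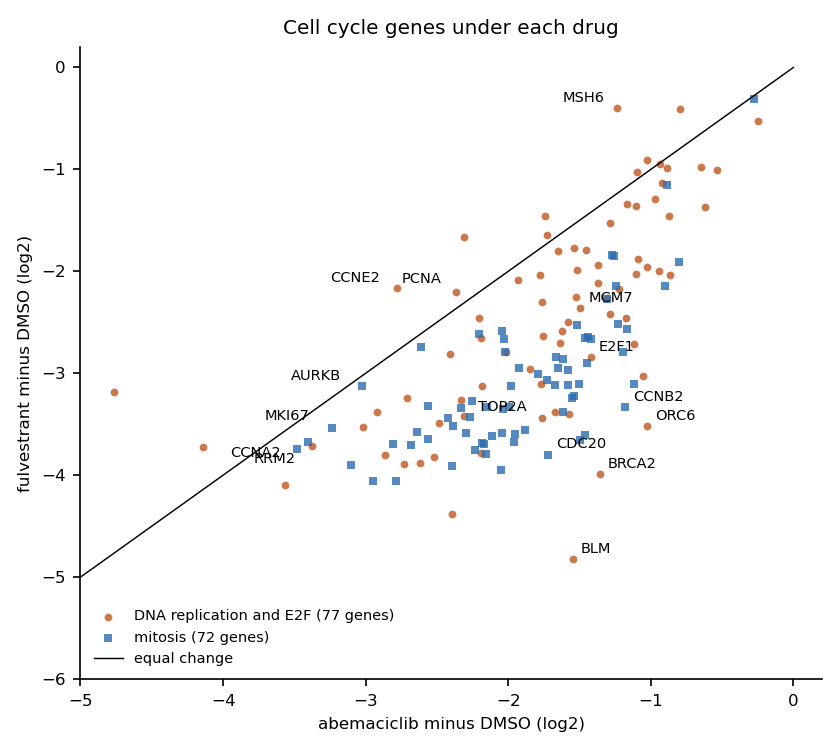
Change from DMSO under abemaciclib (horizontal, log2) and fulvestrant (vertical, log2) for 77 replication genes (circles) and 72 mitotic genes (squares); the line marks equal change. The mitotic genes lie below the line, with CCNB2 and CDC20 well below it and MKI67, CCNA2 and AURKB close to it, whereas MSH6 lies above it.

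Promoter windows of the cell-cycle genes are shown because these genes moved together and their promoters carry short elements that differ between the lists. RefSeq windows from 250 bases before to 50 after the gene start (GRCh38.p14) were found for 63 of the 77 replication genes, 61 of the 72 mitotic genes and 27305 genes in all. The cell-cycle homology region (CHR, TTTGAA on either strand) was present in 42 of 61 mitotic promoters (68.9%) and 2 of 63 replication promoters (3.17%), against 15.4% of all promoters and 9.1% of the 8986 found for tested genes. An E2F element (TTTCCCGC or TTTGGCGC on either strand) was present in 26 replication promoters (41.3%) and 2 mitotic promoters (3.28%), against 2.31% of all and 3.92% of those of tested genes. The replication list was chosen to include E2F targets, so its share is descriptive and not a separate result. In the 130 bases before each start, written 5′ to 3′ on the gene's strand, capitals mark the CHR in CCNB2, CDC20 and PLK1 and the E2F element in PCNA and E2F1:

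CCNB2: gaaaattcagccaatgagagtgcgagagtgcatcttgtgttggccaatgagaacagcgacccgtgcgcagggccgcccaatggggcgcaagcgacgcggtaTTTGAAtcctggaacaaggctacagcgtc
CDC20: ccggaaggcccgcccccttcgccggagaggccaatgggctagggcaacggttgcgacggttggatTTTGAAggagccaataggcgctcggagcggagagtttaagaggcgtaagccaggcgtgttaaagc
PLK1: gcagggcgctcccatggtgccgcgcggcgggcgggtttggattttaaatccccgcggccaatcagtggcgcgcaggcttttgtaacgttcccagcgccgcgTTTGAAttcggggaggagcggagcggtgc
PCNA: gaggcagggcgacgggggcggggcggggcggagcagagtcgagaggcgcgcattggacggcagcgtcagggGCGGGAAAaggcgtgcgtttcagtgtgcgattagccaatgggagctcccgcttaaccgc
E2F1: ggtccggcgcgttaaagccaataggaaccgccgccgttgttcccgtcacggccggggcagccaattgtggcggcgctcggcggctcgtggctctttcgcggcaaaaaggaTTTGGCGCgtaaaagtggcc

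The stretches lie at chr15:59105016-59105145 (CCNB2, plus strand), chr1:43358851-43358980 (CDC20, plus strand), chr16:23678759-23678888 (PLK1, plus strand), chr20:5126623-5126752 (PCNA, minus strand) and chr20:33686386-33686515 (E2F1, minus strand). CCNB2, CDC20 and PLK1 were lower under fulvestrant, PCNA was alike under both drugs and E2F1 was lower under fulvestrant, so genes with the E2F element were found with and without a difference between the drugs. Over the mitotic list the median log2 difference was 1.22 for the 42 genes with a CHR in the window and 1.15 for the 19 without, and over the replication list it was 0.90 for the 26 with an E2F element and 0.57 for the 37 without. The palindromic oestrogen response element (GGTCANNNTGACC) was in none of the 26 windows found for tested oestrogen-induced genes. It was in none of the 69 found for genes raised by abemaciclib and lowered by fulvestrant. It was in 0.0659% of all promoters and 0.0111% of those of tested genes, so finding none cannot tell these genes from others. No window was available for TFF1, GREB1 or CCND1, and no more distant sequence was searched.

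Genes that both drugs moved alike were counted by the interval of the difference. Both drugs changed 3541 genes in the same direction, and for 1847 of these (15.6% of all genes tested, 52.2% of the 3541) the 95% interval of the difference lay within 1.5-fold either way. They comprised 970 genes that rose and 877 that fell. KRT80, an epithelial keratin gene, rose alike, at 150 to 186 CPM under abemaciclib and 142 to 169 CPM under fulvestrant from 28.8 to 45.7 CPM (log2 difference 0.13, interval -0.12 to 0.37). ACTA2, smooth muscle actin, rose from 1.71 to 3.26 CPM to 14.7 to 18.6 CPM and 14.9 to 17.1 CPM (0.10, -0.27 to 0.46). CDKN2B, which encodes the CDK4/6 inhibitor protein p15, also rose alike, at 23.2 to 28.8 CPM and 29.6 to 33.6 CPM from 6.53 to 7.60 CPM.

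The p21 gene CDKN1A behaved differently from CDKN2B (chromosome 6, 36676463-36687332). It read 46.2, 48.1 and 44.7 CPM under abemaciclib and 132, 142 and 122 CPM under fulvestrant, from 13.9 to 16.7 CPM in DMSO. It therefore rose under both drugs and was higher under fulvestrant (log2 difference -1.51 ± 0.09, adjusted p = 1.43e-12). Of 29 tested regulators of the G1 phase, 10 (34.5%) were higher under abemaciclib, beside 15.5% of all genes, and 3 (10.3%) under fulvestrant, beside 13.4%. The list shares CCND1 and MYC with the oestrogen-induced list, and CCNE1, CCNE2, E2F1, E2F2, RBL1 and CDC25A with the replication list. CDKN1A, CDKN1B, CDKN1C and RBL2 are also in the list of quiescence genes below. RB1 and CDK4 did not differ past the threshold, at -0.18 (interval -0.63 to 0.26) and 0.04 (-0.16 to 0.25). E2F3 was lowered by fulvestrant, whereas its change under abemaciclib was 0.03 (log2 difference between the drugs 0.65 ± 0.09), and CCNE1, a cyclin E gene, differed by 0.75 ± 0.23, a call lost without abemaciclib replicate 3 (adjusted p = 0.0732).

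Growth-restraining and quiescence genes went further under fulvestrant. Of 25 tested, 14 (56%) were higher under fulvestrant and 1 (4%, CCNG1) under abemaciclib, beside 13.4% and 15.5% of all genes. The median log2 difference of the list was -0.55. The CCNG1 call was lost without fulvestrant replicate 1 (adjusted p = 0.0597). TXNIP, an inhibitor of thioredoxin and of glucose uptake, read 349, 398 and 377 CPM under abemaciclib and 807, 836 and 619 CPM under fulvestrant, from 111 to 145 CPM (log2 difference -1.01 ± 0.10). PIK3IP1, an inhibitor of PI3 kinase, read 25.6, 26.7 and 26.8 CPM against 58.1, 57.0 and 43.8 CPM (95% interval of the log2 difference -1.27 to -0.74). Members of this kind rose under both drugs, CCNG2 and TP53INP1 among them, while KLF9, FOXO3 and YPEL3 rose past the threshold under fulvestrant only (log2 differences -1.02 ± 0.11, -0.88 ± 0.13 and -1.02 ± 0.12).

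Ribosome biogenesis genes fell further under fulvestrant. Of 43 tested, 33 (76.7%) were higher under abemaciclib and 0 under fulvestrant, beside 15.5% and 13.4% of all genes. The median log2 difference of the list was 0.53. Against DMSO, 24 of the 43 fell under abemaciclib and 38 under fulvestrant, beside 20.7% and 25.7% of all genes. NPM1 (nucleophosmin), an abundant nucleolar protein, read 637, 641 and 673 CPM under abemaciclib and 394, 392 and 401 CPM under fulvestrant, from 951 to 998 CPM (log2 difference 0.72 ± 0.07). LYAR and NOP16 showed the widest gaps, 1.22 ± 0.11 and 1.18 ± 0.11. FBL, the fibrillarin gene, was among the narrowest at 0.25 ± 0.08, its libraries overlapped, and its call was lost without abemaciclib replicate 1 or 3 or fulvestrant replicate 1 or 2 (adjusted p from 0.0729 to 0.139).

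On the other side, the 15 largest differences in favour of fulvestrant were smaller in size. They were KCNK12, PVALB, CBLN2, SIGLEC15, PSCA, SOCS2-AS1, COLEC12, SOCS2, PLA2G2A, ADCY2, NDRG1, PCAT14, XDH, DBP and BRDT. SIGLEC15, a sialic acid-binding receptor, read 61.3, 55.0 and 62.0 CPM under fulvestrant and 7.00, 5.52 and 3.79 CPM under abemaciclib, close to the 3.56 to 4.18 CPM of DMSO (log2 difference -3.42 ± 0.17). NDRG1, a stress-responsive gene of differentiation, read 951, 963 and 816 CPM against 219, 200 and 191 CPM, from 101 to 126 CPM (-2.16 ± 0.09). Neither gene had overlapping libraries.

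SOCS2, a feedback inhibitor of JAK-STAT signalling, read 45.0, 55.0 and 45.4 CPM under fulvestrant and 9.60, 9.49 and 8.59 CPM under abemaciclib, from 4.56 to 6.61 CPM (log2 difference -2.38 ± 0.17). SOCS2-AS1 moved with it (-2.69 ± 0.23). The 2 genes overlap on chromosome 12 (SOCS2, 93569969-93626236; SOCS2-AS1, 93565628-93571398), and the strand setting of the counting is not given in the sources used here, so reads may have been shared between them. SOCS3, of the same family, was the reverse: 52.0, 60.3 and 61.7 CPM under abemaciclib against 21.7, 24.5 and 16.6 CPM under fulvestrant, which overlapped DMSO (1.47 ± 0.15). The receptor genes GHR (growth hormone) and PRLR (prolactin) were higher under fulvestrant (log2 differences -0.96 and -0.48). Of the 9 tested genes of this pathway list, 4 (44.4%) were higher under fulvestrant, beside 13.4% of all genes, and 2 (22.2%) under abemaciclib, beside 15.5%.

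Only 43 genes fell under abemaciclib and rose under fulvestrant, and their median changes were -0.42 and 0.51. Among the widest gaps were those of KCNK12, PVALB, CBLN2, DBP, CAMK2N1, TMEM37 and ADRA2C. Against DMSO, the rise of PVALB under fulvestrant only just passed the threshold (edgeR quasi-likelihood test, adjusted p = 0.0473). The fall of KCNK12 under abemaciclib (same test, adjusted p = 0.0372) rested on at most 3 counts per abemaciclib library. PVALB, a calcium-binding protein, read 1.40, 0.221 and 0.505 CPM under abemaciclib, 14.1, 14.7 and 16.4 CPM under fulvestrant and 8.89 to 11.6 CPM in DMSO (log2 difference -4.30 ± 0.34). ADRA2C, an adrenergic receptor gene, read 86.8, 82.8 and 82.9 CPM against 238, 299 and 264 CPM, from 148 to 162 CPM (-1.66 ± 0.09). Both genes kept their groups apart, with DMSO in between.

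Receptor tyrosine kinase genes split. Of 22 tested genes of receptor and insulin signalling, 7 (31.8%) were higher under fulvestrant, beside 13.4% of all genes, and 4 (18.2%) under abemaciclib, beside 15.5%. ERBB2, the HER2 gene, read 262, 229 and 244 CPM under fulvestrant and 114, 125 and 126 CPM under abemaciclib, from 41.0 to 64.1 CPM (log2 difference -1.01 ± 0.10, adjusted p = 1.63e-08). ERBB3, its partner, differed by -0.58 ± 0.08, and GRB7, an adaptor encoded next to ERBB2, was also higher under fulvestrant (-0.78). IGF1R, IGFBP4 and IRS1 were among those on the other side, with IRS1, an insulin receptor substrate, lowered by both drugs (0.80 ± 0.23). IGF1R and IGFBP4 are also in the oestrogen-induced list.

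Apoptosis genes of the BCL2 family were called in both directions, 5 of 15 (33.3%) higher under fulvestrant, beside 13.4% of all genes, and 2 (13.3%) under abemaciclib, beside 15.5%. BMF, a pro-apoptotic BH3-only gene, read 35.6, 32.4 and 29.6 CPM under fulvestrant and 7.40, 12.4 and 9.85 CPM under abemaciclib, from 3.26 to 5.89 CPM (log2 difference -1.73 ± 0.18). BBC3 (PUMA) differed by -0.94 ± 0.10. BID and BCL2L12 were higher under abemaciclib, at 1.12 ± 0.13 and 1.18 ± 0.12. Their fulvestrant levels of 22.6 to 30.1 CPM and 22.0 to 28.5 CPM lay below DMSO.

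Among cytoskeletal genes, 12 of 21 tubulins, actins and their partners (57.1%) were higher under abemaciclib, beside 15.5% of all genes. Under fulvestrant 3 (14.3%) were higher, close to the 13.4% of all genes, and the median log2 difference was 0.39. TUBA1A rose under both drugs, to 37.2, 32 and 35.1 CPM under abemaciclib and 10.4, 11.6 and 8.43 CPM under fulvestrant from 2.67 to 5.17 CPM (1.79 ± 0.17). TUBA1B, an abundant alpha-tubulin, fell under both and further under fulvestrant (1.04 ± 0.11). Tubulin genes are near-identical paralogs, and the way reads were split between them could have altered these values.

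Lipid, immune and lysosomal lists held smaller differences. Of 26 tested genes of sterol and fatty acid synthesis, 13 (50%) were higher under abemaciclib, beside 15.5% of all genes. ACACA alone (3.85%) was higher under fulvestrant, beside 13.4%, and the list median was 0.29. SQLE, squalene epoxidase, was raised by abemaciclib (log2 difference 0.85 ± 0.09) and SCD, stearoyl-CoA desaturase, was lowered by fulvestrant (0.79 ± 0.10). Only 20 of 40 interferon-stimulated genes were expressed enough to test, of which 6 (30%) were higher under abemaciclib and 2 (10%) under fulvestrant, beside 15.5% and 13.4% of all genes, with OAS3 at 1.48 ± 0.22, lowered by both drugs, and PARP9 at -0.72. In the MHC class I list, 6 of 16 (37.5%) were higher under abemaciclib, beside 15.5% of all genes, HLA-B among them (0.85 ± 0.08). HLA-B rose under abemaciclib and fell under fulvestrant, with 176, 186 and 192 CPM against 107, 105 and 95.7 CPM and 125 to 136 CPM in DMSO; HLA genes are polymorphic paralogs whose reads may be assigned unevenly.

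Of 26 lysosomal genes, 14 were moved alike, beside 15.6% of all genes. By the test between the drugs, 8 (30.8%) were higher under fulvestrant, beside 13.4% of all genes, and 2 (7.69%) under abemaciclib, beside 15.5%. TFEB, a regulator of lysosomal genes, differed by -1.52 ± 0.26. Of 25 luminal keratin and junction genes, 6 (24%) were higher under abemaciclib and 5 (20%) under fulvestrant, beside 15.5% and 13.4% of all genes. KRT18 and KRT19 were higher under abemaciclib by 0.47 ± 0.07 and 0.29 ± 0.07, whereas MUC1, EPCAM and ELF3 were higher under fulvestrant (-0.86 ± 0.10, -0.71 ± 0.08 and -0.84).

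**Figure D4:**
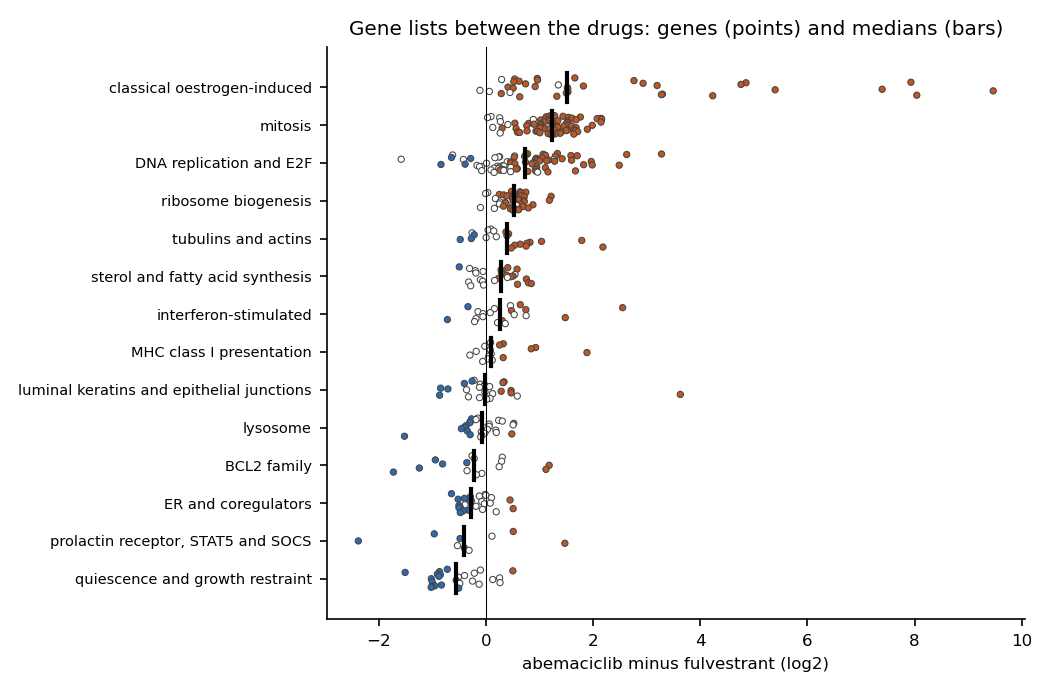
Log2 difference, abemaciclib minus fulvestrant (horizontal), of each tested gene (points) in 14 gene lists, with the median of each list as a black bar; filled points passed an adjusted p of 0.05 and open points did not. Oestrogen-induced, mitotic, replication and ribosome biogenesis genes lie to the right, with medians of 1.51, 1.23, 0.72 and 0.53, and quiescence genes lie to the left, at -0.55.

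A list of 17 early oestrogen response genes that the study had linked to Rb-bound enhancers by chromatin loops in MCF7, another luminal breast cancer line, was examined separately. The study examined their expression under abemaciclib itself, so the list is not taken as independent evidence of its direction, and 8 of its genes are also in the oestrogen-induced list. Between the drugs, 11 of the 17 (64.7%) were higher under abemaciclib, beside 15.5% of all genes. Only 1 (5.88%), the antiproliferative gene TOB1, was higher under fulvestrant, beside 13.4% (log2 difference -0.83 ± 0.10). The list median was 0.96.

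The combination libraries entered neither side of the head-to-head difference and show where it lay when both drugs were present. Over all genes, the combination raised 27.7% and lowered 27.5% against DMSO. Of the 1831 genes higher under abemaciclib, 68.8% were lowered by the combination and 7.7% raised (median log2 change -0.69). Of the 1586 genes higher under fulvestrant, 68.0% were raised and 6.24% lowered (median 0.59). The 89 genes raised by abemaciclib and lowered by fulvestrant had a median change of -0.91 in the combination, beside 0.68 under abemaciclib and -0.91 under fulvestrant, all against the same DMSO libraries.

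Single genes showed both the side and the depth. TFF1 read 1.92, 2.89 and 2.14 CPM in the combination, and CCND1 read 244, 237 and 215 CPM, both on the fulvestrant side of DMSO. CDKN1A, at 119, 111 and 118 CPM, was also near its fulvestrant level. Cell-cycle genes went lower than under either drug: MKI67 read 2.41, 2.48 and 1.75 CPM, and CCNB2 0.722, 1.65 and 0.971 CPM. The median log2 change of the mitotic list was -6.03 in the combination, beside -1.96 and -3.26 for the single drugs. CCNB2 lay near the floor of 3 counts per library (0.64 CPM in the combination), so changes of this size are uncertain. With a small count added before taking logs, the mean change of the list was -5.07, beside -1.89 under abemaciclib and -3.05 under fulvestrant. PVALB, at 7.77 to 8.48 CPM, lay between the single drugs.

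**Figure D5:**
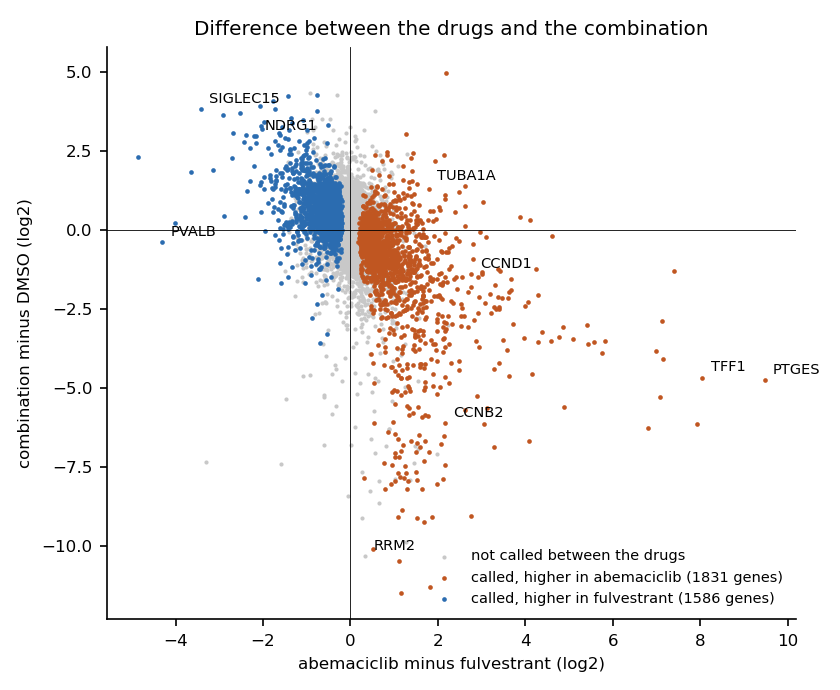
Log2 difference between the drugs, abemaciclib minus fulvestrant (horizontal), and log2 change of the combination from DMSO (vertical), for 11803 genes; coloured points differed between the drugs. Genes higher under abemaciclib lie mostly below 0 (68.8% lowered past the threshold) and genes higher under fulvestrant mostly above it (68.0% raised), and no library is used on both axes.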

How the data were processed

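RNA from CAMA-1 cells was sequenced as QuantSeq 3′ libraries, 3 per group. The authors deposited raw counts per gene, made per the labels and methods with BBDuk 38.90, STAR 2.7.5b and Subread featureCounts 2.0.1 on hg38 with GENCODE 35. The strand setting is not given in the sources used here. A 3′ tag count does not scale with transcript length. Levels were not compared between genes. Genes were filtered with filterByExpr (minimum count 10, minimum total 15), scaled by TMM and fitted over all 12 libraries with edgeR 4.0.16 (quasi-likelihood, robust) in R 4.3.3. P-values were two-sided and adjusted by Benjamini-Hochberg at 0.05. CPM used TMM-scaled library sizes. Differences are log2 with SE, and folds against groups at or below 3 counts per library are lower bounds. Genes were called alike when the 95% interval lay within 1.5-fold. Intervals and floors cover these libraries only.

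Named genes were members of 19 gene lists, the 15 largest separated differences per direction with at least 10 CPM, and the 8 largest opposed per direction. Some genes that the rule names are not reported here. Members and lists were chosen with earlier results of these data known. Alternatives were DESeq2 1.42.0, other scalings, filters, a replicate block, thinning and leaving out each library of abemaciclib, fulvestrant or DMSO. The fit was tested on simulated data. Replicate numbers did not pair the samples. Promoters and gene positions came from RefSeq (GRCh38.p14).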

Additional observations from a re-analysis of the deposited data

How the results depend on the processing

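Of 127 named genes called between the drugs, 116 kept call and direction in every alternative fit checked. The others were RRM1, MKI67, FOXM1, KDM5A, DUT, FBL, MYC, TYMS, NRIP1, CCNE1 and CCNG1, and the cause was not tested. The check covered the 18 alternatives that refitted the data, except those without a DMSO library. Each gene was checked only in the fits that tested it. Without DMSO replicate 1, 2 or 3, the fits lost 1, 7 and 3 of the 323 called list and top genes. They gained 4, 0 and 0. DESeq2 called 2897 genes and the compared libraries alone 2957. With the replicate block 3326 genes were called, of which 3283 were shared, and the numbers did not pair the samples. A limit of at least 2-fold left 826 genes, 558 higher in abemaciclib and 268 in fulvestrant. Leaving out 1 library of either drug gave 2733 to 3353 calls, 1478 to 1804 higher in abemaciclib and 1192 to 1549 higher in fulvestrant. The fits without 1 DMSO library gave 3276 to 3492 calls. Over the fits without 1 library of either drug or of DMSO, 85 to 140 genes were opposed. In those fits 423 to 615 were lowered by both and lower in fulvestrant, and 1463 to 1888 were alike. List medians, without 1 library of either drug, ranged from 1.38 to 1.58 (oestrogen-induced), 1.15 to 1.31 (mitosis) and 0.61 to 0.77 (replication). The other ranges were 0.47 to 0.59 (ribosome biogenesis), -0.28 to -0.19 (ER and coregulators) and -0.72 to -0.55 (quiescence). Without the filter on low counts the median for ER and coregulators was -0.22. Differences that changed sign were uncalled. Over the fits that left out 1 library of either drug, AURKB ranged from -0.055 (without fulvestrant replicate 1) to 0.21. MCM4 ranged from -0.093 (without fulvestrant replicate 2) to 0.073. With the odd value without fulvestrant replicate 3, RARA ranged from -0.092 to 0.28, PKIB from -0.22 to 0.049 and CDK4 from -0.032 to 0.12. AURKB was -0.0031 after thinning to the smallest total, 3299119 counts.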
